A study of Mus musculus with 2 samples.

Results

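B cells, chosen by their UMI counts (unique molecular identifiers, each standing for an RNA molecule), were picked out of single-cell RNA libraries of mouse blood as barcodes with at least 8 UMIs of Cd79a, Cd79b, Ms4a1, Pax5 and Ebf1 together, at most 1 UMI of the T cell receptor genes Cd3d, Cd3e and Cd3g, and under 5% of UMIs from the neutrophil genes S100a8 and S100a9. This gave 210 of 13517 barcodes in the old library and 395 of 12921 in the young library, after barcodes with under 200 genes or over 20% mitochondrial UMIs had been removed. The old library came from blood of mice aged 24 months and the young library from blood of mice aged 2 months, both labelled male, with no genotype change or treatment named. In both, live cells positive for CD45, CD11b and Ly6G had been sorted after lysis of red cells, a gate meant for neutrophils, and captured with the BD Rhapsody system, in which every molecule is tagged with its cell of origin and a UMI. B cells are not expected in that gate, so their number depends on the sort as well as on the blood. With 1 library per age, and the number of animals in each not stated, no test between ages was possible: no p-value is given, and all values describe these libraries.

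B cells make antibodies and carry one as a receptor on their surface, where Cd79a and Cd79b pass its signal into the cell. Naive follicular B cells, the main kind in blood, carry IgM and IgD and the IgE receptor CD23, encoded by Fcer2a. Smaller kinds include B-1 cells, which make natural IgM, cells that have met antigen and switched class, and age-associated B cells, which gather in old mice and are usually marked by the transcription factor T-bet (Tbx21) and the integrin CD11c (Itgax).

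The whole series held 14334 old and 13599 young barcodes with medians of 7265.5 and 4246 UMIs, of which 53 barcode sequences occurred in both libraries, 1 of them an old B cell. B cells had a median of 7700.5 UMIs in the old and 6228 in the young library, so their depths were closer than those of all barcodes. UMIs were summed over the B cells of each library, to 1902997 old and 2840279 young, and scaled to counts per 1000000 UMIs (CPM). The 95% intervals given in parentheses, by the exact Poisson method for levels and by that of Clopper and Pearson for shares, cover only the error of counting. S100a8 and S100a9 came to 75.4 UMIs per old B cell and 46.5 per young B cell, which is 3.02% and 7.51% of the level in neutrophils. The neutrophil profile scaled to that level made up 3.01% of old and 5.06% of young B cell UMIs and is called expected free RNA below. That level is a mean over cells, and neutrophil markers took 2% or more of UMIs in 20 old and 33 young B cells. The median B cell had 0.683% of its UMIs from S100a8 and S100a9 in the old and 0.179% in the young library. Expected free RNA therefore does not describe the median cell, for which the old library had the higher share. Ly6g, the sorted surface marker's gene, stood at 49.9 CPM in old and 6.34 in young B cells, and expected free RNA came to 58% of its mean level. Itgam, which encodes CD11b, stood at 89.9 and 71.8 CPM, with 20% expected from free RNA. How B cells passed the gate was not tested. Xist, which coats the inactive X chromosome, was found in 194 of 210 old and 343 of 395 young B cells, against the male label.

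Barcodes fell into separate groups by the 5 genes of the rule. Of those passing the other conditions, 2 old and 4 young barcodes had 4 to 7 UMIs of these genes, just outside the limit, and 10 old and 1 young had 8 to 15, just inside it. The median B cell had 55 such UMIs in the old and 59 in the young library. The S100a8 and S100a9 limit cut through a thinner part of the range: 2 old and 10 young B cells had 4% to 5% of UMIs from these genes, against 2 and 9 barcodes with enough B cell UMIs that had 5% to 6%. Of barcodes with at least 8 B cell UMIs, 36 old and 27 young were removed by this limit, and 9 old and 0 young by the Cd3 limit. B cells made up 1.55% (1.35 to 1.78) of filtered barcodes in the old library and 3.06% (2.77 to 3.37) in the young library.

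**Figure D1:**
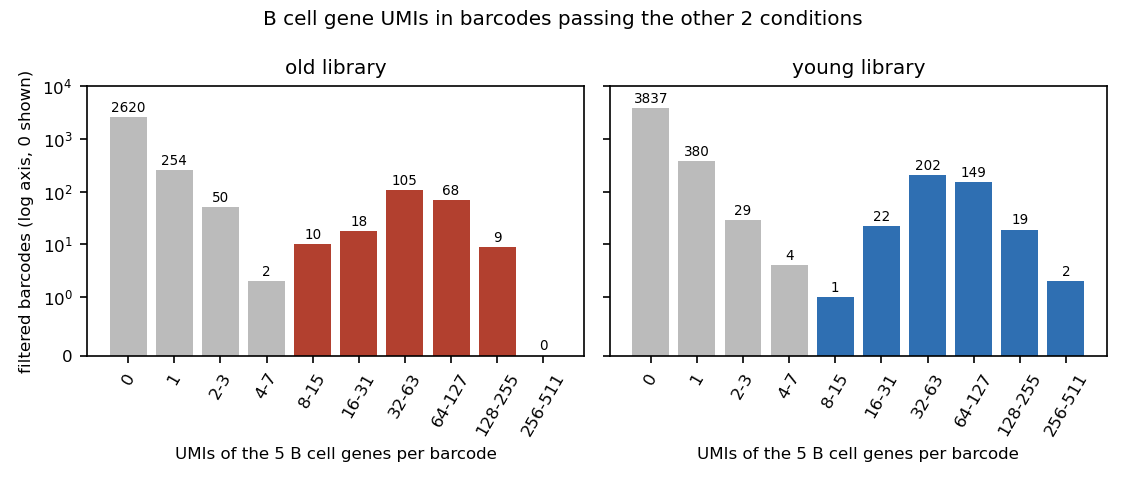
Barcodes by UMIs of Cd79a, Cd79b, Ms4a1, Pax5 and Ebf1 together, in the old (left) and young (right) library, on a log axis; the number stands on each bar and coloured bars are the B cells. The bars at 4 to 7 UMIs hold 2 old and 4 young barcodes, between a group near 0 and a group with a median of 55 and 59 UMIs.

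B lineage genes that the rule did not use were present. Cd74, the chaperone of MHC class II, had a UMI in all 210 old and all 395 young cells. Igkc, the kappa light chain constant region, stood at 6501 and 6603 CPM. The T cell list of 14 genes summed to 16.3 CPM in old and 48.9 CPM in young B cells; the rule capped its Cd3 genes, and of the others Cd4 and Thy1 were at 0 in old and Cd4, Cd8a and Trac at 0 in young. The NK cell list of 10 genes summed to 12.6 and 51.4 CPM, and 5 of its genes were at 0 in old B cells. Cells with 2% or more of UMIs from erythroid genes numbered 6 in each library. The median B cell had 0.143% of its UMIs from these genes in the old and 0.119% in the young library. The highest single cells had 57.4% and 63.4%, so few cells can set the sums of erythroid genes. In all, 180 old and 355 young cells had under 2% from any other cell type's list. Of these lists, the neutrophil list holds S100a8 and S100a9, limited by the rule. Neutrophil markers summed to 10662 CPM in old and 7957 CPM in young B cells.

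Old and young B cells differed in a limited set of genes. Of 3535 genes whose mean over both libraries reached 50 CPM, 279 (7.89%) were at least 1.5-fold higher in old B cells and 308 (8.71%) at least 1.5-fold lower, after 1 CPM was added to each level. The median gene differed by -0.04 on the log2 scale, so plain ratios were used. The genes with the highest ratios included Sox5, a transcription factor, Robo1, a receptor for Slit guidance proteins, Ctla4, an inhibitory receptor, and both partners of the CD30 pair, the receptor Tnfrsf8 and its ligand Tnfsf8. The genes with the lowest ratios included Fcer2a, Vpreb3, a chaperone of antibody chains in the B lineage, and Id3, an inhibitor of E proteins.

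Sox5 (ENSMUSG00000041540, chromosome 6, 143828425 to 144781977, GRCm38) stood at 1170 CPM (1122 to 1219) in old B cells and 79.6 CPM (69.5 to 90.6) in young B cells, 14.7-fold higher in old. The intervals lie far apart, and no single old cell held more than 3.91% of the old Sox5 UMIs. Reads of Sox5 and of its opposite-strand gene Sox5os4 can be told apart only by strand, and whether the counting used strand is not given in the sources used here; Sox5os4 stood at 64.6 CPM in old and 25.4 CPM in young B cells with 3 or more Sox5 UMIs. Robo1 (ENSMUSG00000022883, chromosome 16, 72308306 to 73046095) stood at 130 CPM (114 to 147) in old and 1.41 CPM (0.384 to 3.61) in young B cells, from 247 and 4 UMIs. These 247 UMIs came from 41 of 210 cells. Tnfrsf8 stood at 77.2 CPM (65.3 to 90.8) in old and 2.82 CPM (1.22 to 5.55) in young B cells. Its ligand Tnfsf8 had 149 UMIs in 39 old cells and 2 in young cells, a ratio of 111 with a counting interval of 30.2 to 927. Both partners were thus nearly absent from young B cells, although Tnfsf8 was read in T cells of both libraries, at 156 CPM in old and 46.8 CPM in young. Ctla4 stood at 89.3 CPM (76.4 to 104) in old and 5.28 CPM (2.96 to 8.71) in young B cells, 16.9-fold higher in old, and 55 old and 12 young cells had a UMI.

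The other genes with the highest ratios varied in how many cells carried them. Zcwpw1, a reader of histone methylation known from meiosis, stood at 259 CPM in 61 old cells and 9.15 CPM in 21 young cells. Syn3, which encodes synapsin III, had 134 UMIs in 41 old cells and 2 in 1 young cell, a ratio with a counting interval of 27.1 to 834. Ahnak2, a large scaffold protein, had 111 UMIs in 40 old cells and 3 in 1 young cell, a ratio of 55.2 (18.4 to 272). Gas7, an actin-binding protein, stood at 118 CPM in 47 old cells and 5.28 CPM in 8 young cells, and it was also higher in old than in young T cells (141 and 28.7 CPM). Mcc, a gene mutated in colorectal cancers, stood at 121 CPM in old and 2.82 CPM in young B cells, but its 231 old UMIs lay in 20 cells and 26.4% of them in 1 cell. Chil3, a chitinase-like protein secreted by myeloid cells, stood at 221 CPM in old and 8.80 CPM in young B cells. A single old B cell held 109 Chil3 UMIs. Chil3 had a UMI in 110 of 210 old B cells and in 78 of 144 old T cells, against 12 of 395 and 6 of 175 in the young library. It also differed between old and young neutrophils, at 1040 and 69.5 CPM, and expected free RNA came to 14% of its level in B cells. A clone-named protein-coding model on an unplaced scaffold completes the 12, with 188 UMIs in old and 2 in young B cells.

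Among the genes with the lowest ratios, Fcer2a (ENSMUSG00000005540, chromosome 8, 3681737 to 3694175) stood at 52.0 CPM (42.3 to 63.3) in old and 310 CPM (290 to 331) in young B cells. After each cell was thinned to 1000 UMIs, 8.57% (5.16 to 13.2) of old and 26.3% (22.1 to 31.0) of young B cells had a Fcer2a UMI, against 0% of T cells in both libraries. Without thinning these shares were 24.3% and 71.4%, at median depths of 7700.5 and 6228 UMIs. The depth of the old cells was thus the higher while their share was the lower. Vpreb3 (ENSMUSG00000000903, chromosome 10, 75943057 to 75949657) stood at 48.9 CPM (39.4 to 59.9) in old and 263 CPM (244 to 282) in young B cells. Id3 stood at 16.8 CPM (11.5 to 23.7) in old and 101 CPM (89.7 to 113) in young B cells, 6.01-fold lower in old. Tmem108, a transmembrane protein studied mainly in neurons, stood at 11.0 and 67.2 CPM. Edaradd, the adaptor of the ectodysplasin receptor, stood at 14.7 and 70.4 CPM, and Ppm1e, a protein phosphatase, at 25.7 and 96.8 CPM. Gfod1 stood at 8.93 and 50.3 CPM and Gpr155 at 12.1 and 54.2 CPM.

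Some of the lowest 12 come with a further measurement. Sugct, a mitochondrial CoA transferase, stood at 8.41 CPM in old and 172 CPM in young B cells, but it was as low in old T cells (6.85 CPM, against 186 CPM in young) and old neutrophils (4.19 CPM, against 842 CPM in young). Expected free RNA came to 25% of its level in B cells. Dmd, which encodes dystrophin, stood at 13.7 CPM in old and 195 CPM in young B cells, at 2.28 and 182 CPM in T cells and at 0.908 and 52.3 CPM in neutrophils. For both genes the old to young difference was therefore not seen in B cells alone. Ccl5, a chemokine, stood at 12.1 CPM in old and 57.0 CPM in young B cells, and 1 young cell held 67.9% of the young UMIs. Oasl2, an interferon-stimulated gene, stood at 23.1 and 90.5 CPM, and expected free RNA came to 29% of its level.

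**Figure D2:**
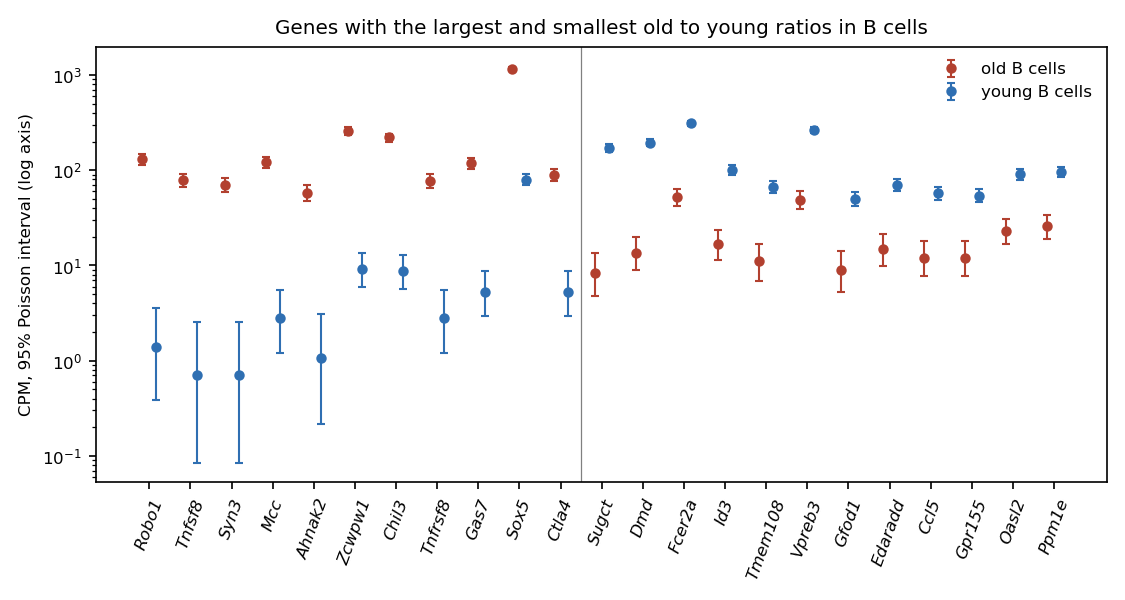
Levels in B cells (CPM, log axis) of the genes with the highest (left of the line) and lowest (right of it) old to young ratios, old left of young for each gene, with 95% Poisson intervals. The clone-named model is not drawn. Sox5 is at 1170 CPM in old and 79.6 CPM in young B cells, and Fcer2a at 52.0 and 310 CPM.

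The promoters of 2 B lineage genes are shown as the DNA next to genes on which this population turns: Cd79a, which the rule used and which differed little, and Vpreb3, among the lowest in old cells. Each run is the 250 bases before the RefSeq transcription start in GRCm38.p6, plus strand, with capitals marking 2 motifs of B lineage promoters that were searched on both strands: the octamer ATGCAAAT, bound by Oct proteins, and an Ets motif, CAGGAAGT.
Cd79a, chr7:24897247-24897496: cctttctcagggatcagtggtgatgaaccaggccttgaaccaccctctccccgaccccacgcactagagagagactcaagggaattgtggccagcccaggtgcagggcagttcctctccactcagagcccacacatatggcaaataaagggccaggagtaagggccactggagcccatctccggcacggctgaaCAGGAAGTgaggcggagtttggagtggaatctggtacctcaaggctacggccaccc
Vpreb3, chr10:75948050-75948299: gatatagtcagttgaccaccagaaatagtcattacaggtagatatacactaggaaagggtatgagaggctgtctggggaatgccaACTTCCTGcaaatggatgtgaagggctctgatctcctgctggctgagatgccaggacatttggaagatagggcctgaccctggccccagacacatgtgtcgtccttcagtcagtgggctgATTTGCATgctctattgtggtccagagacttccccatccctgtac
In the Cd79a run the Ets motif begins 56 bases before the start. In the Vpreb3 run the reverse complement of the octamer begins 45 bases before it, and that of the Ets motif 165 bases before it. Over 32851 RefSeq promoters of this length, 1.60% hold the octamer and 2.69% the Ets motif on either strand. Neither motif was found in the windows searched at Fcer2a, Sox5 and Pax5, which says only that these letters are not in them. The Sox5 window (chr6:143947107-143947356) lies inside the gene span given above, so the upstream end of that span was not searched. Cd79a itself stood at 1782 CPM in old and 2262 CPM in young B cells, within 1.5-fold, against 48.9 and 263 CPM for Vpreb3.

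Of the antigen receptor complex, 0 of 8 genes were 1.5-fold higher in old B cells and 3 were lower, against 9.83% and 10.1% of the 8537 genes at 10 CPM or more, the floor used for gene lists. The 3 were Ighd, the IgD heavy chain, and the lambda light chain genes Iglc1 and Iglc2. Ighd stood at 357 CPM (331 to 385) in old and 959 CPM (923 to 995) in young B cells. Ighm, the IgM heavy chain, stood at 2819 CPM (2744 to 2896) in old and 2547 CPM (2488 to 2606) in young B cells. IgD was therefore lower relative to IgM: 12.7 Ighd UMIs per 100 Ighm UMIs in old and 37.6 in young B cells. Of cells with an Ighm UMI, 51 of 205 old and 12 of 395 young had no Ighd UMI. After thinning to 1000 UMIs, 34.3% (27.9 to 41.1) of old and 57.0% (51.9 to 61.9) of young B cells had an Ighd UMI, against 0% of T cells in both libraries.

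Light and heavy chain use was read per cell where at least 3 UMIs of the chains were present. Lambda was the main light chain in 18 of 208 old B cells, 8.65% (5.21 to 13.3), and in 52 of 393 young B cells, 13.2% (10.04 to 16.99), so the intervals overlap. Lambda took 30% to 50% of light chain UMIs in 22 old and 122 young cells, and 50% to 70% in 2 and 21, so many young cells lie near the dividing line. Iglc2 and Iglc3 are near-identical copies whose reads the counting could split, so their single values (Iglc2 at 623 CPM in old and 1394 CPM in young) are uncertain. A switched heavy chain (IgG, IgA or IgE) was the main one in 3 of 206 old B cells, 1.46% (0.301 to 4.20). It was the main one in 0 of 395 young B cells, which allows a share of up to 0.759% by a floor of 3 counts, and the exact upper limit is 0.930%. Switched UMIs numbered 130 in old and 19 in young B cells. Ighg2b made up 60 of them in old and 3 in young cells, Ighg3 26 and 5, Igha 24 and 11, and Ighg1 15 and 0.

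Genes of signalling below the receptor all stayed within 1.5-fold: of 20 genes of B cell receptor signalling, 0 were 1.5-fold higher and 0 lower in old, with a median log2 ratio of 0.08. Syk, a kinase of the pathway, stood at 1320 CPM in old and 992 CPM in young B cells, Btk at 206 and 263 CPM, and the adaptor Blnk at 468 and 464 CPM. Among 10 measured inhibitors of the receptor 1 was higher and 2 were lower. Fcgr2b, the inhibitory IgG receptor, stood at 168 CPM in old and 79.6 CPM in young B cells. The lower members were Cd72, at 72.0 and 132 CPM, and Fcrl1, at 111 and 201 CPM.

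Of 19 transcription factors of the B lineage 0 were higher, 8 were lower by 1.5-fold and 11 lay within it, with a median of -0.25. Bach2, a repressor that holds back plasma cell fate, stood at 1088 CPM (1041 to 1136) in old and 2286 CPM (2230 to 2342) in young B cells. Mef2c, which acts downstream of the receptor, stood at 684 and 1444 CPM, and Foxo1, which maintains naive cells, at 179 and 325 CPM. The lineage factors Ebf1 and Pax5, which the rule used and which are among the 8, stood at 2327 and 3945 CPM and at 572 and 889 CPM. Pou2af1, a coactivator of Oct proteins, stood at 276 and 235 CPM, and Irf4 at 72.5 and 54.9 CPM, both within 1.5-fold.

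Genes of follicular and of B-1 cells mostly lay on opposite sides. Of 9 follicular genes 0 were higher and 5 lower in old B cells, with a median of -0.62, which lay within 1.5-fold with each cell weighted equally (-0.50). Besides Fcer2a and Ighd these included Ccr7, the receptor that leads cells into lymph nodes, at 115 and 177 CPM. They also included Cd55, which protects cells from complement, at 296 and 506 CPM. Cxcr5, a chemokine receptor on the follicular list, went the other way within 1.5-fold, with a log2 ratio of 0.55 (0.38 to 0.73). Centred on the median gene, Cxcr5 passed 1.5-fold. Of 12 measured B-1 genes 9 were higher and 0 lower, with a median of 1.85. Zbtb32, a repressor found in B-1 and memory cells, stood at 96.7 CPM (83.2 to 112) in old and 6.69 CPM (4.03 to 10.5) in young B cells. Bhlhe41, a transcription factor that B-1a cells need, stood at 60.4 and 15.5 CPM, and Spn, which encodes CD43, at 42.0 and 11.3 CPM. Of the old Spn UMIs, 25 lay in 1 cell. A Spn UMI was found in 35 of 210 old and 28 of 395 young B cells. After thinning to 1000 UMIs these were 2 of 210 and 6 of 395, so the direction of Spn rests on few cells. With thinning, 9 of 12 B-1 genes were higher and 1, Spn, was lower. Thinning also raised the number of genes called among all genes, and their share at the list floor is not given here. S100a6, a calcium-binding protein, stood at 2849 and 480 CPM, but it also stood at 14004 and 5777 CPM in neutrophils, with 15% of its B cell level expected from free RNA. Cd5, the marker of B-1a cells, had a UMI in 7 of 210 old and 10 of 395 young B cells. In the 180 old and 355 young cells with under 2% of UMIs from other types, 12 of 12 B-1 genes were higher and 0 lower. Of 9 follicular genes there, 6 were lower and 1, Cxcr5, was higher. Over 8501 genes these shares were 10.8% higher and 9.68% lower. The B-1 genes gained there were Anxa2, Cd300lf and Itgam, the gene of the sorted CD11b. Neutrophil markers were higher in old B cells as well, with 8 of 14 higher and 3 lower and a median of 0.81, and with 11 higher and 3 lower and a median of 1.88 in those 180 and 355 cells, where the B-1 median was 1.89. Their part in the B-1 values was not tested. Relative to the median gene of each cell type, the median of the B-1 list was 1.89 in B cells, 0.10 in T cells and 1.1 in neutrophils.

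Genes of age-associated B cells were mostly higher: 8 of 11 measured members, Sox5 among them, were higher in old B cells and 1, Ccl5, was lower. Their median was 0.94, and of all genes at this floor 9.83% were higher and 10.1% lower. Fcrl5, an Fc receptor-like protein, stood at 242 CPM (221 to 265) in old and 39.8 CPM (32.8 to 47.8) in young B cells, and Cd80, a costimulatory ligand, at 107 and 17.6 CPM. Cd86, its relative, stood at 127 and 60.6 CPM, Tlr7, a sensor of single-stranded RNA, at 38.4 and 20.8 CPM, and Zbtb20, a factor of memory and plasma cells, at 1159 and 695 CPM. The defining genes of these cells were scarce: Tbx21 had a UMI in 13 of 210 old and 3 of 395 young B cells, and Itgax in 4 and 19. Itgax stood at 6.83 CPM in old and 7.75 CPM in young B cells. Of 6 measured genes of class-switched and memory cells 4 were higher and 1 lower, with a median of 1.71. Nt5e, which encodes the ectonucleotidase CD73, stood at 33.6 CPM in old and 1.41 CPM in young B cells, and Pdcd1lg2, which encodes PD-L2, at 31.0 and 16.2 CPM. The lower member was Cd27, at 10.5 and 23.2 CPM, which marks memory cells in humans.

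Of 12 genes of immature and transitional B cells 4 were measured, of which 0 were higher and 2 lower in old B cells. Sox4, a factor of B cell progenitors, had 0 UMIs in old and 82 in young B cells, in 43 young cells, which is at least 18.3-fold lower in old against a floor of 3 counts over all old B cells. The list median was -1.11, and setting Sox4 to that floor cannot move it because Sox4 stays the lowest member. Cd24a, high on immature cells, stood at 202 CPM in old and 178 CPM in young B cells. Marginal zone genes had 4 of 10 measured members higher and 0 lower, with a median of 0.43, among them Dtx1, a regulator of Notch signalling, at 86.2 CPM in old and 21.1 CPM in young B cells. Cr2, the complement receptor that marginal zone cells carry in excess, stood at 98.3 and 147 CPM. Of 8 plasma cell genes 2 were higher and 1 lower. Mzb1, a chaperone of secreted IgM, stood at 440 and 241 CPM.

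**Figure D3:**
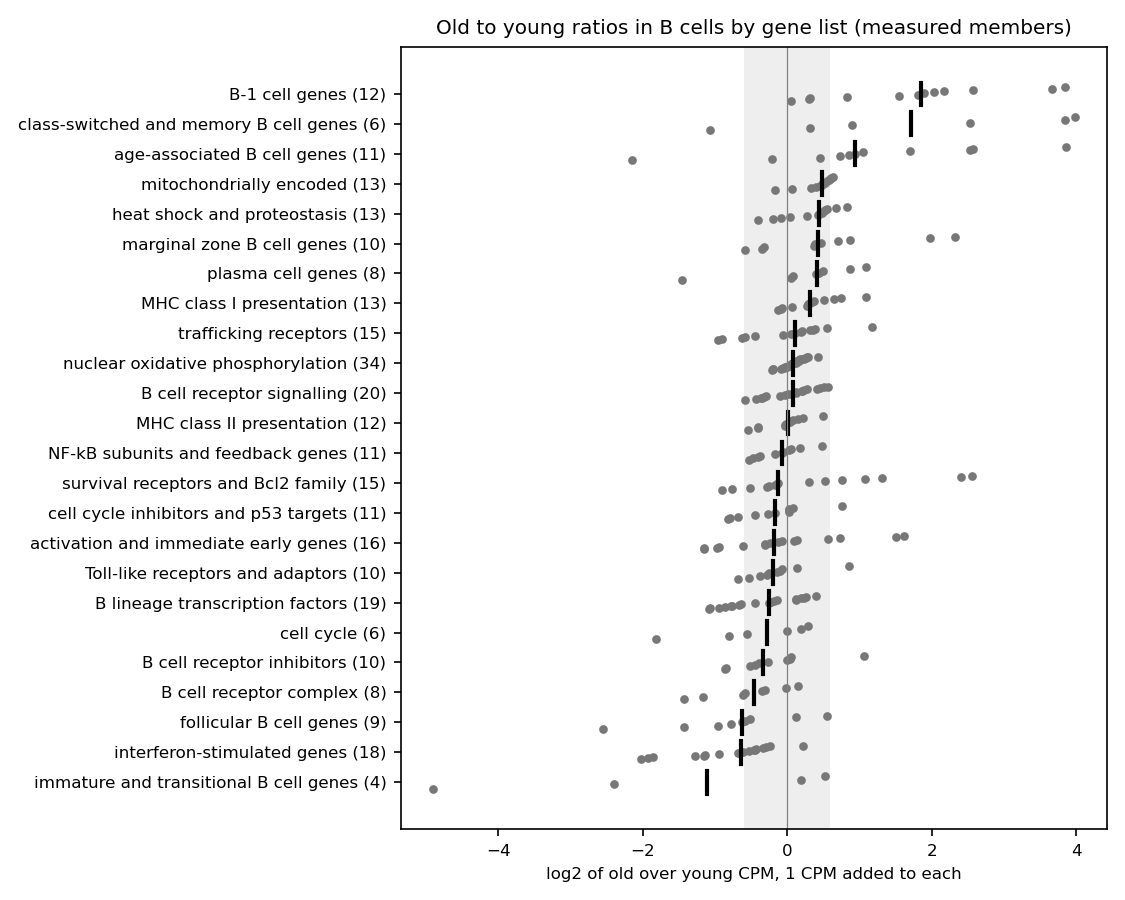
Log2 ratios of old over young CPM in B cells (1 CPM added to each) for the measured members of each gene list, one grey point per gene, with a black bar at the list median and the number measured in parentheses; the shaded band is within 1.5-fold. B-1 genes have a median of 1.85, and interferon-stimulated and follicular genes medians of -0.63 and -0.62, which lay at -0.48 and -0.50 with each cell weighted equally.

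Antigen presentation differed little. Of 12 MHC class II genes 0 were higher and 0 lower, with a median of 0.01, and H2-Aa stood at 2556 CPM in old and 2618 CPM in young B cells. Of 13 class I genes 3 were higher and 0 lower, among them H2-Q7 at 273 and 127 CPM, a value that is uncertain because this gene has near-identical relatives. In the NF-kB list 0 of 11 were higher and 0 lower, and in nuclear oxidative phosphorylation 0 of 34 were higher and 0 lower. Of 13 mitochondrially encoded genes 3 were higher and 0 lower, with a median of 0.48. In cells with under 2% of UMIs from other types 0 of 13 passed 1.5-fold, but the median there was still 0.45. Set against each cell type's median gene, the median of this list was 0.52 in B cells, 0.33 in T cells and 2.33 in neutrophils. Of 13 heat shock genes 2 were higher and 0 lower, with a median of 0.45. Hsp90ab1, a cytosolic chaperone, stood at 867 CPM in old and 487 CPM in young B cells.

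Survival genes went both ways, with 5 of 15 measured members higher and 2 lower in old B cells. Tnfrsf13c, the BAFF receptor that naive B cells need to survive, stood at 82.5 CPM in old and 155 CPM in young B cells, and Cd40 at 42.6 and 72.9 CPM. Bbc3, which encodes the death-promoting protein PUMA, stood at 21.5 and 2.82 CPM, and Traf1, an adaptor of TNF receptors, at 39.9 and 6.69 CPM. Bcl2 stood at 320 and 379 CPM, within 1.5-fold. Among 15 trafficking receptors 1 was higher and 4 were lower: Itgb7, an integrin chain of gut homing, stood at 210 and 92.2 CPM, and S1pr4 at 57.8 and 109 CPM. Of 16 activation and immediate early genes 3 were higher and 5 lower. Myc stood at 73.6 CPM in old and 25.4 CPM in young B cells, and Dusp1, a phosphatase of MAP kinases, at 111 and 248 CPM, with 37% of the Dusp1 level expected from free RNA.

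Interferon-stimulated genes were lower in old B cells, with 0 of 18 measured members higher and 10 lower and a median of -0.63, which lay within 1.5-fold with each cell weighted equally (-0.48). Ifi27l2a stood at 224 CPM (204 to 247) in old and 500 CPM (474 to 526) in young B cells, with 7% expected from free RNA, and Slfn2 at 198 and 381 CPM. Stat2, which carries the interferon signal, stood at 33.1 and 51.1 CPM and Irf7 at 8.41 and 21.8 CPM. Neutrophils carry these transcripts too, and expected free RNA came to 35% of the level of Rtp4 and 44% of that of Rsad2. With expected free RNA subtracted, 0 of 17 were higher and 9 lower. Relative to each cell type's median gene, the list median was -0.59 in B cells, -0.31 in T cells and -0.80 in neutrophils. In the remaining lists, cell cycle genes had 0 of 6 higher and 2 lower, cell cycle inhibitors and p53 targets 1 of 11 higher and 3 lower, and Toll-like receptors with their adaptors 1 of 10 higher and 1 lower.

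Sox5 UMIs were found in a larger share of old than of young B cells. At least 1 UMI was found in 110 of 210 old cells, 52.4%, and in 51 of 395 young cells, 12.9%. After thinning to 1000 UMIs the shares were 36.7% (30.1 to 43.6) in old and 5.57% (3.52 to 8.31) in young B cells, against 0% of old and 0.578% of young T cells and 0.152% and 0.0885% of neutrophils. At least 3 Sox5 UMIs were found in 98 old cells, 46.7% (39.8 to 53.7), and 23 young cells, 5.82% (3.73 to 8.61). Another 12 old and 28 young cells had 1 or 2 UMIs, and 100 old and 344 young cells had 0. This division was chosen after the values were seen, so what follows on it is a description. Cells with 3 or more Sox5 UMIs were deeper, with a median of 10133 UMIs against 5715.5 in Sox5-free old cells, and of 8442 against 6072 in young cells.

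**Figure D4:**
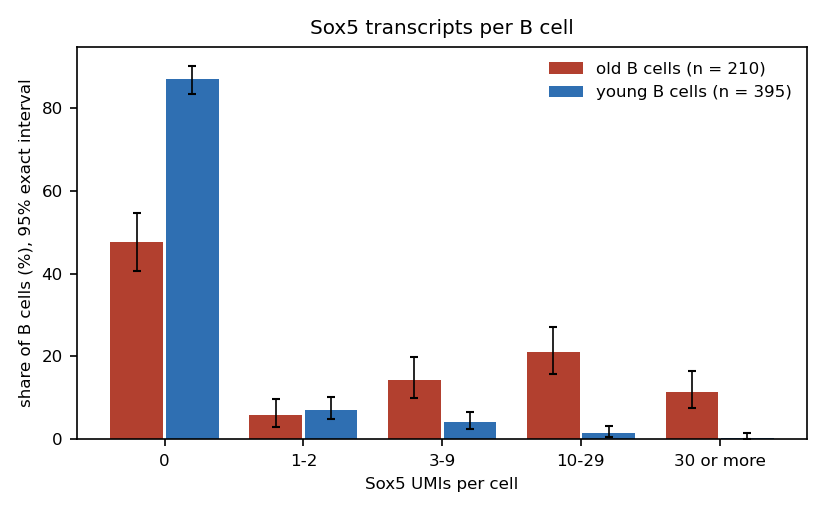
Share of B cells (%) by Sox5 UMIs per cell, old left of young in each bin, with 95% exact intervals. Bins from 3 UMIs up hold 46.7% of old and 5.82% of young B cells.

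The old Sox5 cells carried nearly all transcripts of several genes with high ratios. Of 247 Robo1 UMIs in old B cells 246 lay in the 98 cells with 3 or more Sox5 UMIs and 0 in the 100 cells without one. The Robo1 level in the Sox5 cells was 201 CPM (177 to 228), at least 41.5-fold higher than the 4.85 CPM that a floor of 3 counts allows in the cells without it. Ctla4 likewise had 168 of 170 and Tnfsf8 149 of 149 of their old UMIs there, and both had 0 in cells without Sox5. Tnfrsf8 stood at 119 CPM with and 1.62 CPM without Sox5. Lmo7, a protein of cell junctions, stood at 98.2 CPM with Sox5 and had 0 UMIs without it, and Wee1, a kinase that delays mitosis, at 53.2 CPM with Sox5 and 0 UMIs without it. On the other side, Vpreb3 stood at 7.36 CPM (3.37 to 14.0) in old cells with 3 or more Sox5 UMIs and 133 CPM (105 to 165) in those without. Fcer2a stood at 8.18 CPM (3.92 to 15.04) and 144 CPM (116 to 177), Satb1, a chromatin organiser, at 28.6 and 451 CPM, and Cr2 at 31.9 and 233 CPM.

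Gene lists were compared within the old library as well. Between old cells with 3 or more and with 0 Sox5 UMIs, 19.7% of 8488 genes were 1.5-fold higher and 13.3% lower. Of 12 measured B-1 genes 11 were higher and 0 lower, with a median of 2.38. Of 9 follicular genes 0 were higher and 6 lower, with a median of -1.74. Among 12 age-associated genes, which include Sox5 itself, 8 were higher and 2 lower. Other lists did not follow their old to young values: marginal zone genes had 3 of 10 higher and 2 lower (median -0.01), the receptor complex 1 of 8 higher and 1 lower (0.20), and interferon-stimulated genes 2 of 15 higher and 4 lower (-0.30). Ighd stood at 166 CPM (144 to 191) with and 707 CPM (642 to 776) without Sox5, and Ighm at 3206 and 2037 CPM. Ighg2b had 53 of its 60 old UMIs in the Sox5 cells, whereas Ighg1 had 3 of 15 there. The Ighg2b UMIs came from only 10 old cells, of which 5 had 3 or more and 1 had 25, so this contrast rests on few cells. Monocyte markers summed to 581 CPM with and 221 CPM without Sox5, with 7 of 9 measured genes higher and 0 lower, and erythroid markers to 2118 and 21797 CPM, with 0 of 7 higher and 7 lower. Their part in these differences was not tested. In the 88 and 82 old cells with under 2% of UMIs from other types, 12 of 12 B-1 genes were higher and 0 lower, and 6 of 9 follicular genes were lower and 1, Klf2, higher, against 19.8% higher and 15.2% lower of 8450 genes. Neutrophil markers there had 1 of 14 higher and 0 lower, with a median of -0.03. In the same cells erythroid markers had 0 of 5 higher and 0 lower (median -0.14), and monocyte markers 3 of 7 higher and 0 lower (0.51).

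**Figure D5:**
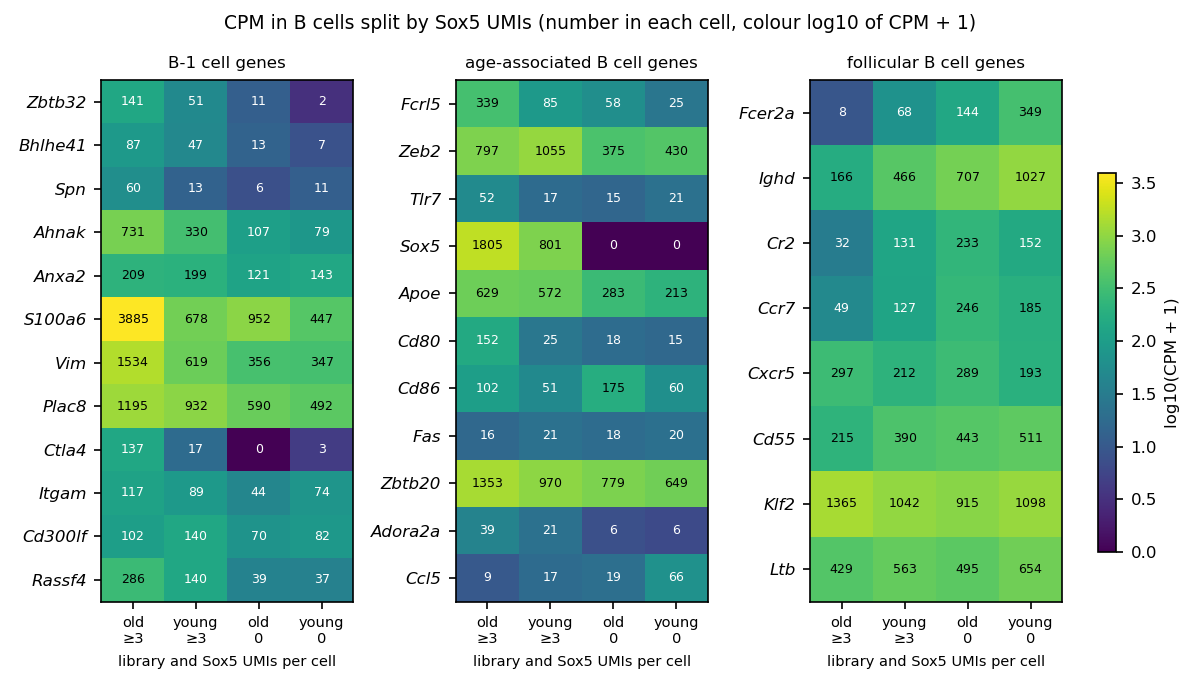
CPM of measured members of 3 gene lists in B cells with 3 or more Sox5 UMIs (old, young) and with 0 (old, young); the number is the CPM and the colour its log10 after adding 1. Fcer2a is at 8, 68, 144 and 349 CPM from left to right, and Zbtb32 at 141, 51, 11 and 2 CPM.

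The 23 young cells with 3 or more Sox5 UMIs shared part of this picture. Lmo7 stood at 98.2 CPM in old and 67.8 CPM in young Sox5 cells, and Wee1 at 53.2 and 50.8 CPM. Agbl1, a tubulin-type deglutamylase, stood at 667 CPM (622 to 714) in old and 1292 CPM (1151 to 1446) in young Sox5 cells, against 16.2 and 162 CPM in cells without Sox5. Robo1, Tnfsf8 and Mcc had 0 UMIs in the young Sox5 cells, where 3 counts equal 12.7 CPM, against 201, 122 and 184 CPM in the old. Vpreb3 stood at 7.36 CPM in old and 263 CPM (201 to 337) in young Sox5 cells, and the young level was near the 258 CPM of young cells without Sox5. Erythroid markers summed to 23352 CPM in the young Sox5 cells and 10219 CPM in the young cells without Sox5. The median young B cell had 0.119% of its UMIs from these markers and the highest 63.4%, so few cells can set these sums.

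Old and young cells without a Sox5 UMI were compared last. Of 3466 genes at 50 CPM or more, 129 (3.72%) were 1.5-fold higher and 243 (7.01%) lower in old, and of 8346 genes at 10 CPM or more 8.03% were higher and 13.9% lower. Of 9 measured B-1 genes 2 were higher and 1 lower, with a median of 0.07, and of 9 follicular genes 1 was higher and 1 lower, with a median of -0.21. Age-associated genes had 2 of 9 higher and 1 lower. The direction of Ccr7 turned, with 246 CPM in old and 185 CPM in young cells without Sox5. Differences that stayed included Fcer2a, at 144 CPM in old and 349 CPM in young, Vpreb3, at 133 and 258 CPM, and Sox4, with 0 UMIs in old and 28.8 CPM in young. Interferon-stimulated genes had 0 of 18 higher and 7 lower, with a median of -0.43. Toll-like receptors with their adaptors had 0 of 9 higher and 4 lower, with a median of -0.51. Erythroid markers had 7 of 8 higher and 1 lower, with a median of 0.88. Their sums were 21797 CPM in old and 10219 CPM in young, and few cells can set such sums. Neutrophil markers had 7 of 14 higher and 3 lower, with a median of 0.65. The part of both marker lists was not tested. Stat4, which carries interleukin 12 signals, stood at 425 CPM (375 to 480) in old and 152 CPM (137 to 169) in young cells without Sox5, and Ccr6, a chemokine receptor, at 170 and 69.0 CPM.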

How the data were processed

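Both files were deposited by the authors as UMI counts per gene and barcode, not normalized, for 32285 genes; the file headers name Cell Ranger 7.2.0 and the submitters' processing notes build mm10. Gene positions came from the GENCODE annotation of GRCm38, in which 453 of 453 named genes matched by identifier. Barcodes in the deposited files hold 16 bases. How Rhapsody cell labels became such barcodes under Cell Ranger headers, and how cells were called, is not given in the sources used here. No doublet caller was run; barcodes with Cd3 or over the S100a8 and S100a9 limit were left out by the rule. T cells are barcodes with 3 or more Cd3 UMIs (144 old, 175 young) and neutrophils those with 5% or more S100a8 and S100a9 UMIs (9998 old, 7896 young), both with at most 1 UMI of the rival genes. For ratios, 1 CPM was added to each level before the log2 of old over young was taken, with a call at 1.5-fold. Expected free RNA is the neutrophil profile scaled to the S100a8 and S100a9 UMIs summed over all B cells of a library.

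The members, the 24 gene lists and the 10 marker lists were chosen with earlier results of these data known. The text names the 12 highest and 12 lowest ratios among genes reaching 50 CPM in at least 1 library. That ranking left out genes of the mitochondrion, ribosomal proteins, haemoglobin and antigen receptors, and genes on the Y chromosome. It also left out unnamed models and genes over 30% expected free RNA. Also named are up to 4 list members reaching 10 CPM per list, further list members, fixed marker genes, and genes of highest variance after thinning. Genes named for the Sox5 division were chosen after their values were seen. Not every gene of the rule is printed, and some list members are not reported here. Ratio and thinning steps were tested on simulated counts at the real depths. Software was Python 3.11.15 with numpy 2.4.6, scipy 1.17.1, pandas 2.3.3 and matplotlib 3.10.9. Alternatives were other limits of the rule, floors, folds, pseudocounts, totals, equal weight per cell, thinning and free RNA subtraction, with B cells without a Sox5 UMI and the old B cell of the shared barcode added after seeing the data. Promoter sequences came from RefSeq.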

Additional observations from a re-analysis of the deposited data

How the results depend on the processing

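No paired analysis was possible because each age has 1 library, and no library could be left out. Without cells with 2% or more UMIs of other types, B cells made up 1.33% of old and 2.75% of young barcodes, and with B cell UMIs counted after thinning to 1000 UMIs 0.739% and 2.12%. Higher and lower genes numbered 424 and 517 with each cell thinned, 549 and 576 at a floor of 20 CPM, 141 and 177 at 100 CPM, and 108 and 77 at 2-fold; fewer counts or other thresholds enter these by construction. Thinning left 0% of old cells with a switched main chain and gave 17.6% of young cells with a lambda main chain. Without Sox5 cells, an alternative chosen after seeing the data, 129 genes were higher, and 1 list median lay beyond 1.5-fold in place of 6. There the log2 ratio turned for Robo1 (-1.18), Tnfsf8 (-0.88), Tnfrsf8 (-0.25), Ctla4 (-2.13) and Ccr7 (0.41); in young cells without Sox5 the first 4 have 2 to 8 UMIs. Of 35 named genes beyond 1.5-fold, 31 stayed beyond it in every alternative but the 2 added after seeing the data, and of 525 values of these genes under 15 alternatives 5 reversed. As measured, 6 list medians lay beyond 1.5-fold. Of these, the follicular median came within it with each cell weighted equally (-0.50) and centred on the median gene (-0.58), the interferon median with equal weight (-0.48), a pseudocount of 5 CPM and without cells with 2% or more UMIs of other types (both -0.56), and the immature median after thinning (-0.53). Depth limits the precision of genes with few UMIs.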

Other observations

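Genes whose counts varied most from cell to cell, after each B cell was thinned to 1000 UMIs, differed in part between the libraries. Among the 15 genes of highest variance over mean in each library, 7 were common to both: Agbl1, Cd74, Lyz2, Malat1, S100a6, S100a8 and S100a9. Mcc had the highest value in old B cells, 5.74, with a mean of 0.105 UMIs per cell and 9 in the top cell, and Crip1, a LIM domain protein, followed at 4.49 in old and 1.77 in young B cells. In young B cells S100a9 (11.0, against 3.75 in old), Lyz2 (10.05, against 4.41 in old) and S100a8 (9.72, against 3.73 in old), all abundant in neutrophils, had the highest values. Cd9, a tetraspanin of marginal zone and B-1 cells, stood at 1.48 in old and 4.21 in young B cells.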
